A study of Mus musculus with 8 samples.

Results

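The constitutive androstane receptor (CAR, gene Nr1i3), the pregnane X receptor (PXR, gene Nr1i2), NADPH-cytochrome P450 reductase (Por) and 6 cytochrome P450 genes of the Cyp2b and Cyp3a families were followed in mouse liver during high-fat feeding. The 9 genes were picked by symbol out of 24079 symbols listed in both assays, and all 9 were listed in every library. Cyp2b13 was selected by its raised footprint to mRNA ratio in the same contrast that is described here, so its values are a description and carry no test. The other 8 genes were chosen as its pathway and family, and were tested.

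Livers came from male C57BL/6 mice at post natal week 25. From week 8 both groups ate a diet that took 45% of its energy from fat. That start and that age are 17 weeks apart, which is also the feeding period in the study's methods, whereas the protocol in the labels states 25 weeks. The HF group received that diet alone, and the HB group also drank water with 2% (w/v) betaine, a methyl donor. Each group held 6 mice, and mRNA (RNA-seq) and ribosome-protected fragments (RPF, Ribo-seq) were each sequenced in 2 libraries per group. The labels speak of pooled RNA, whereas the study's methods speak of single mice near the group mean, so p-values measure the spread between libraries, which may be technical. Both groups ate the high-fat diet, so nothing here compares it with normal chow.

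CAR and PXR are nuclear receptors that sense drugs, bile acids and steroids in hepatocytes. On activation they pair with the retinoid X receptor and switch on genes that clear foreign and endogenous compounds. Cyp2b10 is the classic mouse CAR target and Cyp3a11 the classic PXR target, while Por passes electrons from NADPH to all microsomal P450 enzymes. Cyp2b9 and Cyp2b13 are known for higher expression in female than in male mouse liver.

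The RNA-seq libraries held 11661207 to 22543471 reads and the Ribo-seq libraries 141890 to 1056546, as recovered from the steps that 1 read makes in the values. Both HB footprint libraries, at 257086 and 141890 reads, were shallower than both HF ones, at 387980 and 1056546. In each footprint library the highest RPKM (reads scaled by gene length and library total) belonged to a small noncoding RNA, with 0.731% to 5.14% of reads and Mir122 in both HB libraries. The 9 hepatocyte markers (Alb and Ttr among them) summed to 85237 to 105216 RPKM in mRNA, where the groups overlapped, and in footprints to 41610 to 46719 RPKM in HF and 50383 to 53006 in HB, with 8 of 9 differences positive and none called. Across all tested genes the median log2 difference between HB and HF was −0.19 in mRNA, −0.43 in RPF and −0.35 in their ratio. Shifting the mRNA libraries to a common median moved that median to 0.08, and the called genes went from 246 higher and 701 lower to 540 higher and 291 lower. In bulk liver, fewer cells of a type and less RNA per cell cannot be told apart.

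The 3 Cyp2b genes lie side by side on the plus strand of chromosome 7 (GRCm38): Cyp2b10 at chr7:25897620-25926624, Cyp2b13 at chr7:26061497-26096197 and Cyp2b9 at chr7:26173411-26210661. Cyp2b13 stood apart in its ratio although its sequence is close to that of Cyp2b9, so the 250 bases before their start sites are shown (RefSeq, GRCm38.p6, plus strand). The windows are chr7:26173159-26173408 for Cyp2b9 and chr7:26061245-26061494 for Cyp2b13, and capitals mark the bases that differ.
Cyp2b9: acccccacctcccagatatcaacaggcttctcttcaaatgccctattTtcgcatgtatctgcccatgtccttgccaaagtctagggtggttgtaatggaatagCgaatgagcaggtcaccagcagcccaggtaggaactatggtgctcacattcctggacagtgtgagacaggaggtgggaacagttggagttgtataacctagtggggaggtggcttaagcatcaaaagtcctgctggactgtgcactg
Cyp2b13: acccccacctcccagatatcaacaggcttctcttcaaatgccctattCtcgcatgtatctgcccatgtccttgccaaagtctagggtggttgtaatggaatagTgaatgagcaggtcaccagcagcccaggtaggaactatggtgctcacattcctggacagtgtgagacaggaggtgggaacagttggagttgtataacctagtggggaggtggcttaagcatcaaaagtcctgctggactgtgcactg
The windows are identical at 248 of 250 bases (99.2%). Counted back from the start site, with the base of Cyp2b9 first, the differences are T203C and C147T. Cyp2b10 shares 75.8% of 240 aligned bases with either of them.

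The coding sequences of Cyp2b9 and Cyp2b13 are 92.7% identical over 1473 bases, and those of Cyp2b10 and Cyp2b13 88.9%. The longest stretch that Cyp2b9 and Cyp2b13 share without a change is 113 bases, coding bases 356 to 468 of both, in exon 3 (GENCODE M21). It is shown because it is longer than a footprint.
Cyp2b9 and Cyp2b13: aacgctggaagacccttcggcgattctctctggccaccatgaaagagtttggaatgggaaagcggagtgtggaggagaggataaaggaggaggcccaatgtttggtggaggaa
This stretch holds 86 windows of 28 bases, about the length of a footprint, that cannot be assigned to either gene. Of all 28-base coding windows of Cyp2b13, 54.2% also occur in another annotated gene, against 36.0% for Cyp2b9 and 31.7% for Cyp2b10. Cyp3a11 (53.7%, most often shared with Cyp3a41a) and Cyp3a25 (59.0%, most often shared with Cyp3a59) were in the same range. Cyp3a13 shared 0.945%, and Por and Nr1i2 shared none. For Nr1i3 the share was 62.5%, all of it with Tomm40l, a gene on the opposite strand. Windows of 100 bases left 11.5% of Cyp2b13 shared, 1.02% of Cyp2b9 and 0.495% of Cyp3a11.

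**Figure D1:**
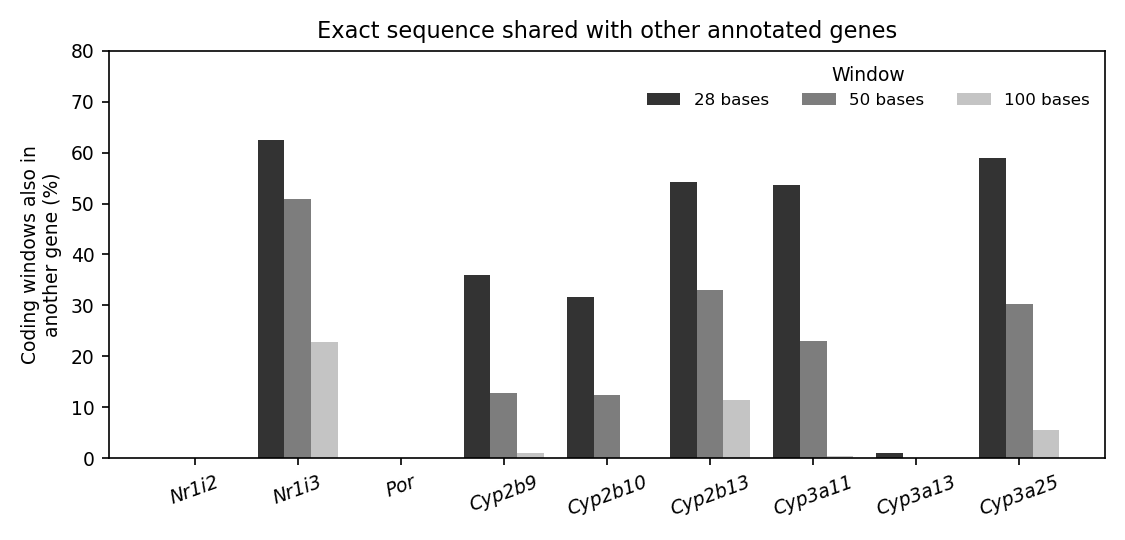
Percent of coding windows of 28, 50 and 100 bases of each gene that occur exactly in another GENCODE M21 gene on either strand. The bars at 28 bases reach 62.5% for Nr1i3, 59.0% for Cyp3a25, 54.2% for Cyp2b13 and 53.7% for Cyp3a11, and Nr1i2 and Por are at 0.

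The hexamer AGGTCA, the core motif that nuclear receptors recognise, was searched on both strands of the 250-base windows, and so was the variant AGTTCA that differs in 1 letter. The first hexamer was found in 4 of the 9 windows (Cyp2b9, Cyp2b13, Cyp3a11 and Cyp3a25) and in 13.8% of 27025 windows genome-wide. The second was found in 1 of the 9, Cyp3a11, and in 11.9% of all windows. The windows of the 2 Cyp3a genes that hold a match are shown, minus strand of chromosome 5, with matches on either strand in capitals: chr5:145879855-145880104 for Cyp3a11 and chr5:146009619-146009868 for Cyp3a25.
Cyp3a11: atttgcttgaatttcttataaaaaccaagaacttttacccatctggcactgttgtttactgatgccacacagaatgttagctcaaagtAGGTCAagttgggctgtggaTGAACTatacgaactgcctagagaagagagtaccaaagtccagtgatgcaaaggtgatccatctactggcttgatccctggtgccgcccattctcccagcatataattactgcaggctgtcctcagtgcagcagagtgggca
Cyp3a25: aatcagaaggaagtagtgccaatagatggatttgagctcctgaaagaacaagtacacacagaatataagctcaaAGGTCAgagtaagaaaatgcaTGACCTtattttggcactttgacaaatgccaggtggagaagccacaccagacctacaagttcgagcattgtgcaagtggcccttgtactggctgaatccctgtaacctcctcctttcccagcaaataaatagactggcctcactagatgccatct
Cyp3a25 holds the first hexamer once on each strand, and Cyp3a11 holds each hexamer once, on opposite strands. A match of 6 letters is a description of the window and does not show binding.

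Among the receptors, Nr1i2 mRNA (chr16:38248323-38294824, minus strand) stood at 133 and 129 RPKM in the HF libraries and at 44.9 and 67.2 in the HB libraries. The groups did not overlap, and the HB mean was 0.429 of the HF mean. The log2 difference was −1.23 ± 0.28 (SE, limma, adjusted p = 0.0128). Nr1i3 mRNA (chr1:171213970-171220701, plus strand) stood at 260 and 333 RPKM in HF and at 67.3 and 159 in HB. Its HB libraries lay far from each other, yet both lay below both HF libraries. The log2 difference was −1.50 ± 0.38 (limma, adjusted p = 0.0203).

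Both receptors thus fell by the rule of an adjusted p under 0.05 with a log2 difference beyond 1, which 12.7% of all 10687 genes met in that direction. Under the study's stricter rule (p under 0.001), which 6.56% of genes met on the lower side, neither receptor was called. Only 7.38% of genes had a lower mRNA difference than Nr1i2, and 3.61% a lower one than Nr1i3. The adjusted call of both receptors ended when the libraries were shifted to a common median, with differences of −0.96 and −1.23, and when HB replicate 1 was left out, with −0.95 and −0.89. That of Nr1i2 also ended without HF replicate 1, with −1.21, and without a filter on low values no gene passed.

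In footprints Nr1i2 stood at 52.0 and 24.0 RPKM in HF and at 21.5 and 25.1 in HB, from 51, 64, 14 and 9 reads. The groups overlapped, and the log2 difference was −0.58 ± 0.48 (limma, adjusted p = 0.663). Nr1i3 footprints stood at 57.1 and 44.9 RPKM in HF and at 35.7 and 59.3 in HB, from 29, 62, 12 and 11 reads. HB replicate 2 was the highest of the 4 and HB replicate 1 the lowest, with a log2 difference of −0.14 ± 0.38 (limma, adjusted p = 0.904). The sign of that difference was positive after shifting to a common median, at 0.19.

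The footprint to mRNA ratio (translational efficiency, TE) of Nr1i3 was 0.220 and 0.135 in HF and 0.530 and 0.374 in HB. The HB values lay above the HF values, and the log2 difference of 1.36 ± 0.80 missed the threshold (limma, adjusted p = 0.520). The ratio of Nr1i2 was 0.392 and 0.186 in HF and 0.480 and 0.374 in HB, which overlap (log2 difference 0.65 ± 0.78, adjusted p = 0.757). Both receptors sat below the median ratio of all genes in every library, which ran from 0.739 to 1.07.

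Nr1i3 overlaps Tomm40l, a mitochondrial import channel homologue transcribed from the opposite strand. The kit named for the mRNA libraries does not mark strand, so their reads in the overlap cannot be told apart. The study's methods do not say whether the footprint libraries mark strand. The isoform nearest to the gene length used for Tomm40l covers 257 of the 1414 exon bases of Nr1i3 (18.2%), and all isoforms together cover 936 (66.2%). Tomm40l mRNA stood at 106 and 170 RPKM in HF and at 24.0 and 64.9 in HB (log2 difference −1.73 ± 0.43, adjusted p = 0.0182). In mRNA the order of the 4 libraries was that of Nr1i3. In footprints Tomm40l stood at 32.7 and 15.2 RPKM in HF and 4.00 and 9.65 in HB, from 37, 47, 3 and 4 reads, and the groups did not overlap (log2 difference −1.68 ± 0.64, limma, adjusted p = 0.493), whereas those of Nr1i3 overlapped. The part of Tomm40l reads in the Nr1i3 value was not tested. Summing both genes gave 366, 503, 91.4 and 223 RPKM of mRNA for HF replicates 1 and 2 and HB replicates 1 and 2, and 89.8, 60.1, 39.7 and 68.9 RPKM of footprints. The ratio of the sums was 0.246 and 0.120 in HF and 0.434 and 0.308 in HB, without overlap.

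Por mRNA (chr5:135670033-135735326) stood at 391 and 280 RPKM in HF and at 217 and 327 in HB, and the groups overlapped (log2 difference −0.31 ± 0.31, limma, adjusted p = 0.479). Its footprints stood at 146 and 156 RPKM in HF, from 143 and 416 reads, and at 89.3 and 123 in HB, from 58 and 44 reads. Both HB footprint values lay below both HF values, but the log2 difference of −0.52 ± 0.29 was near the median of all genes and missed the test (adjusted p = 0.602). The ratio of Por was 0.373 and 0.557 in HF and 0.411 and 0.376 in HB.

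**Figure D2:**
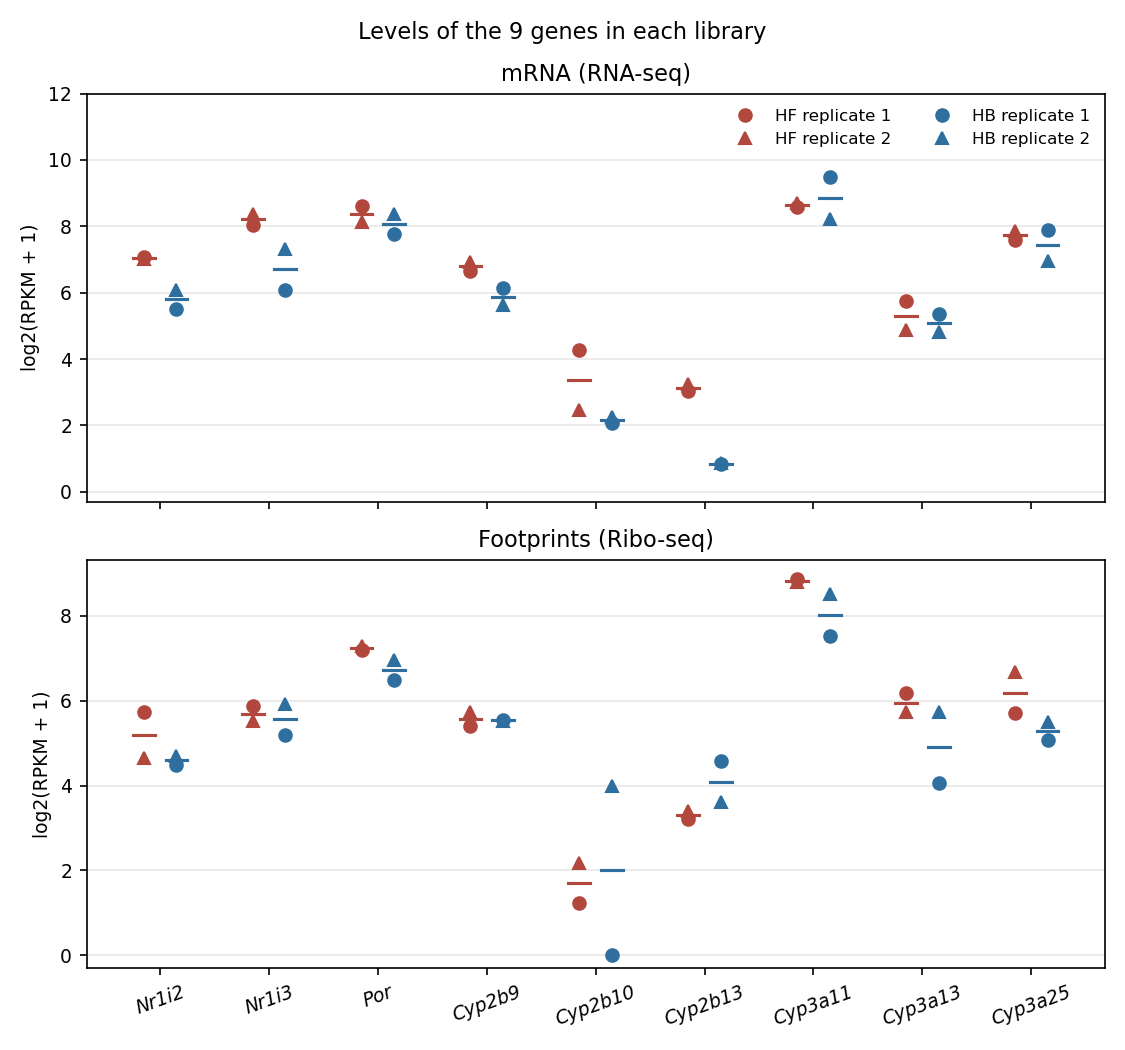
Levels of the 9 genes in mRNA (top) and footprints (bottom), as log2(RPKM + 1), with 1 symbol per library and a line at the group mean (HF red, HB blue). In mRNA both HB libraries lie below both HF libraries for Nr1i2, Nr1i3 and the 3 Cyp2b genes, while in footprints they do so for Por, Cyp3a11 and Cyp3a25.

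The Cyp2b enzymes hydroxylate steroids and drugs. Cyp2b9, the most abundant of the 3, had mRNA values of 101 and 120 RPKM in HF and 69.7 and 48.3 in HB. The groups did not overlap, and the log2 difference was −0.91 ± 0.28 (limma, adjusted p = 0.0372), within the size threshold of 1. Without HB replicate 1 it was −1.17 and was called by both rules. Cyp2b9 footprints stood at 41.2 and 51.9 RPKM in HF and at 45.6 and 45.1 in HB, from 30, 103, 22 and 12 reads. Both HB values lay between the HF values, with a log2 difference of −0.03 ± 0.31 (adjusted p = 0.975). The ratio of Cyp2b9 was 0.409 and 0.432 in HF and 0.654 and 0.934 in HB, without overlap (log2 difference 0.88 ± 0.64, adjusted p = 0.597).

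Cyp2b10 mRNA stood at 18.4 and 4.55 RPKM in HF and at 3.19 and 3.74 in HB, from 404, 101, 135 and 127 reads. HF replicate 1 stood apart from the other 3 libraries. The log2 difference of −1.22 ± 0.48 did not pass (limma, adjusted p = 0.0845). Without HF replicate 1 it was −0.32, and without HF replicate 2 it was −2.13 and called. Its footprints rested on 1, 7, 0 and 4 reads, which gave 1.37 and 3.53 RPKM in HF, a listed 0 in HB replicate 1 and 15.0 in HB replicate 2. In HB replicate 1 a count of 0 allows up to 6.21 RPKM (3 reads), so no difference was detectable at this depth. The footprint difference of 0.29 ± 1.45 became −0.91 with a pseudocount of 0.1 RPKM.

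Cyp2b13 mRNA stood at 7.13 and 8.48 RPKM in HF, from 156 and 188 reads, and at 0.780 and 0.825 in HB, from 33 and 28 reads. The HF mean of 7.80 ± 0.95 RPKM (SD, n = 2) was 9.72 times the HB mean of 0.803 ± 0.032. Its footprints stood at 8.24 and 9.59 RPKM in HF, from 6 and 19 reads, and at 22.8 and 11.3 in HB, from 11 and 3 reads. By counting error alone, the 95% exact Poisson interval of the HB replicate 1 footprints ran from 11.4 to 40.8 RPKM and that of HB replicate 2 from 2.32 to 32.9. Those of the HF libraries ran from 3.03 to 17.9 and from 5.77 to 15.0 RPKM, so all 4 footprint intervals overlapped.

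The footprint to mRNA ratio of Cyp2b13 was 1.16 and 1.13 in HF and 29.2 and 13.7 in HB. It stood near the middle of all genes in HF, above 53.0% and 53.7% of them, and above 99.8% and 99.4% of them in HB. The mean ratio was 18.8 times higher in HB than in HF, and pairing the libraries of each group the other way gave 18.2 times. On the log2(value + 1) scale the difference was −2.28 in mRNA, 0.79 in footprints and 3.07 in the ratio. The footprint difference was −0.01 when the libraries were rescaled to a common sum. Behind the 2 HB ratios stand 61 mRNA reads and 14 footprint reads.

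Within a library, Cyp2b9 mRNA was 14.1 and 14.2 times Cyp2b13 mRNA in HF and 89.4 and 58.5 times in HB. In footprints the same ratio was 5.00 and 5.42 in HF and 2.00 and 4.00 in HB. These ratios restate the values by which Cyp2b13 was selected, and the HB footprint ones rest on its 11 and 3 reads. Since more than 1 in 3 of the 28-base coding windows of either gene occur elsewhere, the sum of the family was also taken, a choice made after seeing the data. The 3 genes summed to 126 and 133 RPKM of mRNA in HF and to 73.7 and 52.8 in HB, and to 50.8 and 65.1 RPKM of footprints in HF and 68.4 and 71.3 in HB. The ratio of the sums was 0.402 and 0.488 in HF and 0.928 and 1.35 in HB, 2.56 times higher in HB, against 18.8 times for Cyp2b13 alone, but Cyp2b9 makes up most of each sum (69.7 of 73.7 RPKM of mRNA in HB replicate 1). How reads that match several Cyp2b genes were assigned is not given in the sources used here, and their part in the ratio was not tested.

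**Figure D3:**
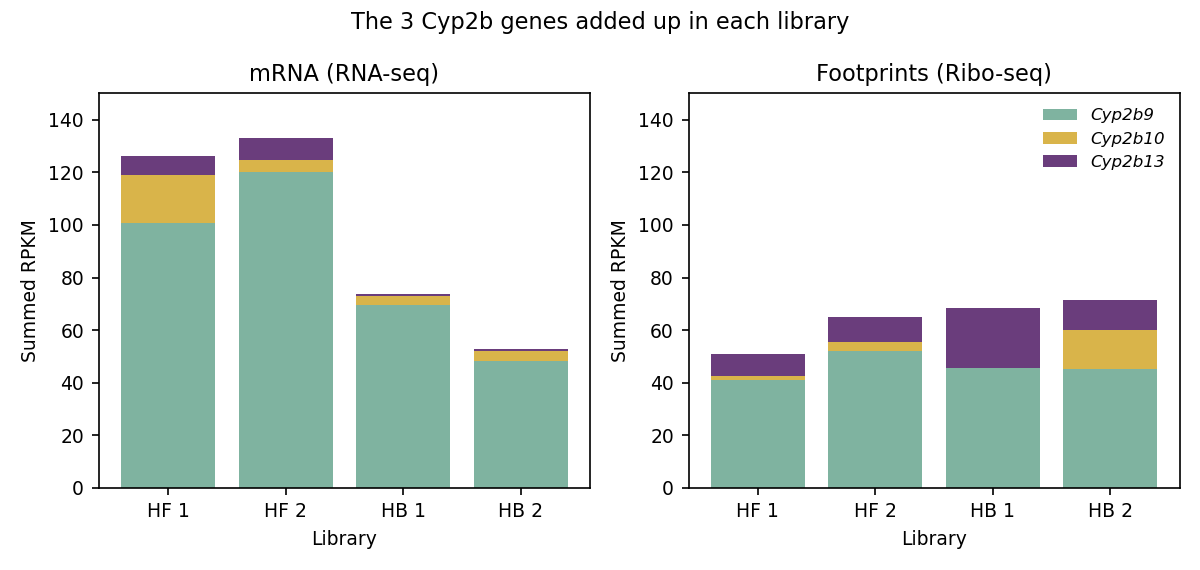
Summed RPKM of Cyp2b9, Cyp2b10 and Cyp2b13 in each library, mRNA on the left and footprints on the right, stacked by gene. The mRNA sums are 126 and 133 in HF and 73.7 and 52.8 in HB, while the footprint sums lie between 50.8 and 71.3 in all 4 libraries.

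The 3 genes outside the chosen 9 with the pattern most like Cyp2b13 were Txlng, Slfn5 and Slc38a6, at Euclidean distances of 0.626, 0.792 and 0.834 over the 8 libraries among 9455 genes. Txlng mRNA stood at 53.0 and 54.5 RPKM in HF and at 7.54 and 10.3 in HB, with footprints of 13.6 and 22.1 in HF and 39.6 and 29.2 in HB.

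The Cyp3a enzymes oxidise steroids, bile acids and many drugs. Cyp3a11 (chr5:145854426-145879964, minus strand) had the highest mean level of the 9 genes, with mRNA of 379 and 413 RPKM in HF and 716 and 297 in HB. The HB libraries lay on either side of the HF libraries (log2 difference 0.22 ± 0.39, limma, adjusted p = 0.697), and without HB replicate 1 the difference was −0.41. Its footprints stood at 467 and 439 RPKM in HF, from 372 and 952 reads, and at 184 and 364 in HB, from 97 and 106 reads. Both HB values lay below both HF values, with a log2 difference of −0.81 ± 0.40 (adjusted p = 0.564). With libraries of equal number paired, the ratio was 1.23 and 1.06 in HF and 0.257 and 1.22 in HB. The labels do not say that equal numbers share an animal, and the spread and overlap of these ratios depend on that pairing. The log2 difference of the ratio was −1.03 ± 0.86 (limma, adjusted p = 0.645), and crossing the numbers left it at −1.03. Without HB replicate 2 it was −2.15, and without HB replicate 1 it was 0.09.

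Cyp3a13 (chr5:137892932-137921619, minus strand), which is also known from the intestine, had mRNA of 52.7 and 28.3 RPKM in HF and 39.7 and 27.4 in HB (log2 difference −0.22 ± 0.33, limma, adjusted p = 0.648). Its footprints stood at 71.5 and 51.9 RPKM in HF and at 15.8 and 52.5 in HB, from 82, 162, 12 and 22 reads. HB replicate 1 stood far below the other 3 libraries, and the log2 difference of −1.05 ± 0.63 missed the test (adjusted p = 0.617). Without HB replicate 1 it was −0.21.

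Cyp3a25 (chr5:145977194-146009618, minus strand) had mRNA of 193 and 231 RPKM in HF and 237 and 123 in HB (log2 difference −0.30 ± 0.34, limma, adjusted p = 0.527). Its footprints stood at 51.2 and 100.4 RPKM in HF and at 32.5 and 44.2 in HB, from 38, 203, 16 and 12 reads. The groups did not overlap, with a log2 difference of −0.90 ± 0.44 (adjusted p = 0.560). Its ratio stood at 0.266 and 0.435 in HF and at 0.137 and 0.359 in HB, which overlap.

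Some near copies of the Cyp3a genes differed between the 2 assays, while Cyp3a41a, Cyp3a16 and Cyp3a44 held 0 or 1 read in every library of both. Cyp3a41b was listed at 0 in all 4 mRNA libraries but had footprints of 150 and 102 RPKM in HF and 50.9 and 99.0 in HB, from 120, 222, 27 and 29 reads. Cyp3a59 had 2.23 to 8.44 RPKM of mRNA and 27.3 to 91.0 RPKM of footprints. Adding the copies to their nearest relative left the Cyp3a11 footprints lower in HB, at 618 and 541 RPKM in HF and 235 and 463 in HB. With Cyp3a57 and Cyp3a59, Cyp3a25 footprints were 141 and 234 RPKM in HF and 64.7 and 159 in HB, which overlap.

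No member tested was called in footprints, by a log2 difference beyond 1 with p under 0.05, a rule that 9.44% of 11190 genes met in either direction. Across all genes no footprint difference had an adjusted p under 0.05 in limma, although 1122 had an unadjusted p under 0.05, and limma voom on the recovered reads gave 84 with an adjusted p under 0.05. With voom, Cyp3a13 and Cyp3a25 footprints were called lower, and with a common sum Por, Cyp3a11, Cyp3a13 and Cyp3a25 were. That rescaling put the median of all genes at −1.16, lower than without it.

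In mRNA, both HB values lay below both HF values in 5 of the 9 genes (Nr1i2, Nr1i3, Cyp2b9, Cyp2b10 and Cyp2b13), as they did in 43.3% of all genes, and above them in none, against 24.8%. In footprints they lay below in 3 of the 9 (Por, Cyp3a11 and Cyp3a25), against 33.2%, and above in Cyp2b13 alone, against 9.07%. In the ratio they lay above in 3 of the 9 (Nr1i3, Cyp2b9 and Cyp2b13), against 14% of 9455 genes. Cyp2b13, which was selected by its ratio in this contrast, is in these counts, and without it the mRNA count is 4 of 8 and the ratio count 2 of 8. The shares below in mRNA, without Cyp2b13, and in footprints are close to those of all genes. Of the 8 members with a test none met the ratio rule of the study (log2 difference beyond 2 with p under 0.05), which 1.49% of genes met on the higher side and 4.6% on the lower.

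**Figure D4:**
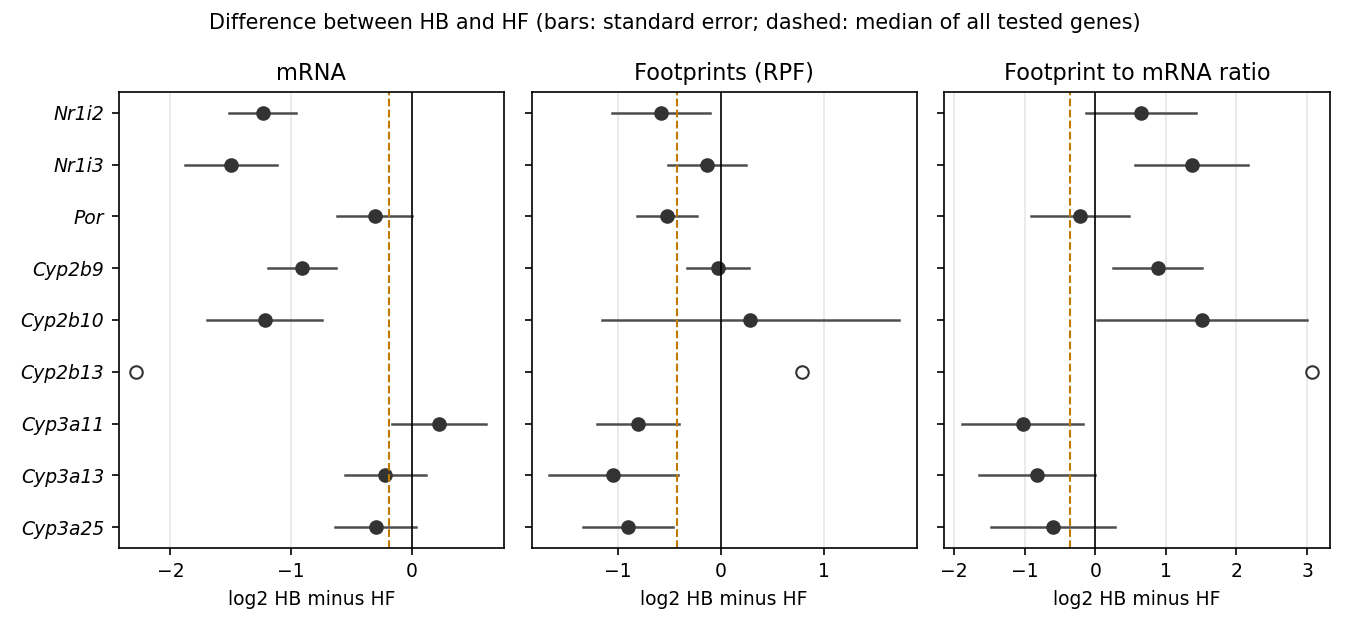
Log2 difference HB minus HF of each gene in mRNA, footprints and their ratio, from log2(RPKM + 1) with 2 libraries per group. Bars are standard errors, the open circle is Cyp2b13 (no test), the dashed line is the median of all tested genes (−0.19, −0.43 and −0.35). In mRNA all genes but Cyp3a11 lie left of the dashed line, with Por, Cyp3a13 and Cyp3a25 close to it, and in footprints Nr1i2, Por and the 3 Cyp3a genes do.

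**Figure D5:**
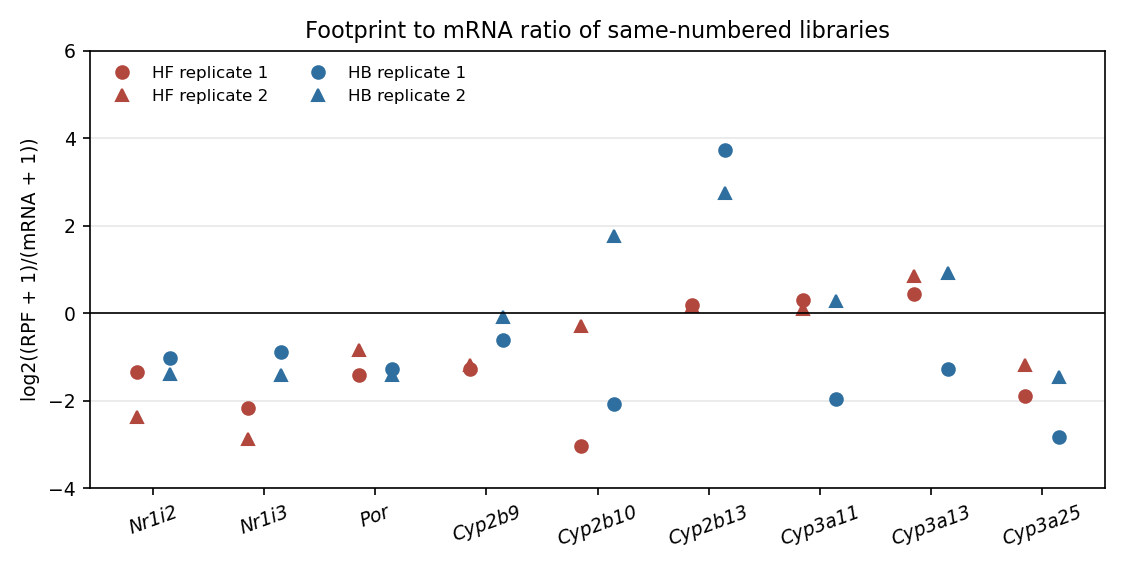
Footprint to mRNA ratio of each gene, as log2((RPF + 1)/(mRNA + 1)) of same-numbered libraries, with 1 symbol per library. The labels do not say that equal numbers share an animal, and another pairing would move the symbols. HB replicates lie above HF replicates for Nr1i3, Cyp2b9 and Cyp2b13, and the 2 HB libraries lie far apart for Cyp2b10, Cyp3a11 and Cyp3a13.

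Within the HF group the order of mRNA levels per length was Cyp3a11, Por, Nr1i3, Cyp3a25, Nr1i2, Cyp2b9, Cyp3a13, Cyp2b10 and Cyp2b13. The values of Cyp3a11 and Por, of Por and Nr1i3, and of Cyp2b10 and Cyp2b13 overlapped, while the other neighbours were apart. Within HB, Cyp3a25 stood above Nr1i3 and Cyp2b9 above Nr1i2, and in those pairs the values overlapped. In footprints Cyp3a11 and Por led in both groups and did not overlap with the gene next in order. In HF footprints Cyp2b10 was last at 1.37 and 3.53 RPKM, below Cyp2b13 at 8.24 and 9.59.

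The calls of genes outside the chosen 9 often depended on single libraries. Of the 16 genes that the naming rule took in mRNA from the pathway, marker and sex-biased lists, 10 lost their call when 1 of the 4 libraries was left out, and only Aldh1a7 and Cyp4a12b kept it under every alternative. In footprints 15 of 17 lost it without 1 library, and none kept it under every alternative. In the ratio 8 of 10 lost it without 1 library. Sult5a1 and Ugt1a5 kept it wherever a value could be computed, which was not the case for either with a mean of at least 5 RPKM, nor for Ugt1a5 without HB replicate 1. Both rest on few footprint reads. Sult5a1 had 0 and 2 in HF and 4 and 2 in HB. Ugt1a5 had 10 and 28 in HF and 2 and 0 in HB, where 3 reads are 3.64 and 6.59 RPKM.

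Receptor partners and coregulators (21 genes, 20 tested in mRNA) had 1 gene called lower and none higher, against 6.56% and 2.3% of all genes, with a median log2 difference of −0.61 against −0.19 over all genes. The called gene was Gadd45b, a stress-induced protein, at 43.2 and 6.61 RPKM in HF and 0.631 and 1.75 in HB (log2 difference −3.12 ± 0.65, limma, adjusted p = 0.0102). The difference was −1.85 without HF replicate 1 and −4.39 without HF replicate 2. The call was lost without HB replicate 1 (−2.74), with a common median, with voom and without a filter. In footprints 1 of 21 was called higher and 4 lower, against 1.58% and 7.86% of all genes, with a median of −0.35 against −0.43. They were Dnajc7, a cochaperone that holds CAR in the cytoplasm, which stood at 7.80 and 9.01 RPKM in HF and at 21.9 and 18.3 in HB, and, on the lower side, Foxo1, Ncor1, Gadd45b and Rxrg. Foxo1, a transcription factor under insulin control, stood at 31.6 and 26.4 RPKM in HF and at 7.71 and 12.7 in HB. Ncor1, a corepressor of nuclear receptors, stood at 76.0 and 54.1 RPKM in HF and at 23.2 and 37.6 in HB. Footprints of Gadd45b and Rxrg were between 1.78 and 2.42 RPKM in HF, from 1 to 4 reads, and listed at 0 in HB. There a count of 0 allows up to 9.22 and 16.7 RPKM for Gadd45b and up to 5.47 and 9.92 for Rxrg (3 reads), so no difference was detectable at this depth. With voom they differed by −0.44 and −0.93 and were not called. All these footprint calls had an adjusted p of 0.493 in limma. Those of Dnajc7, Foxo1 and Ncor1 were lost when either HF library was left out. Those of Foxo1 and Ncor1 were also lost with a common median (−1.13 and −0.77), and that of Dnajc7 with a common sum (0.36).

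Of 17 genes of heme synthesis and electron supply to P450 enzymes, 1 was called higher and none lower in mRNA, and 1 higher in footprints, against 2.3% and 1.58% of all genes on the higher side. In mRNA this was Cyb5b, an outer mitochondrial membrane cytochrome b5, at 28.4 and 26.9 RPKM in HF and 114 and 73.8 in HB (log2 difference 1.69 ± 0.28, limma, adjusted p = 0.00564). The median of the list was 0.31 in mRNA and −0.37 in footprints, where Hmox2, a heme oxygenase, was called higher (16.4 and 10.6 RPKM in HF, 31.0 and 39.3 in HB). The log2 difference of Hmox2 was 1.34 ± 0.41 (limma, adjusted p = 0.493), and the call was lost with a common sum (0.51). Leaving out 1 library spanned 1.04 to 1.64.

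Of the other phase I targets of CAR and PXR, 14 of 18 were tested in mRNA, and 3 were called higher and 1 lower, with a median log2 difference of 0.22. Over all genes the same rule called 2.3% and 6.56%. By the adjusted rule, under which the receptors fell, 5 of the 14 were higher and 1 lower, against 5.01% and 12.7% of all genes. Aldh1a7, an aldehyde dehydrogenase, rose from 37.8 and 32.7 to 147 and 102 RPKM (log2 difference 1.77 ± 0.27, limma, adjusted p = 0.00526). Ephx1, microsomal epoxide hydrolase, rose from 88.8 and 124 to 238 and 311 RPKM (1.37 ± 0.29, adjusted p = 0.0104), and Ces2c, a carboxylesterase, from 12.6 and 14.2 to 31.3 and 32.0 RPKM. Cyp2c54 fell from 186 and 221 to 74.9 and 81.1 RPKM (−1.37 ± 0.26, adjusted p = 0.00756). No gene of this list was called in footprints. In the ratio Cyp2c54 was called higher, with a log2 difference of 2.07 ± 0.82 (limma, adjusted p = 0.404), and none was called lower, against 1.49% and 4.6% of all genes. The call was lost with a common sum (1.26), with a pseudocount of 0.1 RPKM, with the replicate block and without HF replicate 1, HF replicate 2 or HB replicate 1 (1.99 to 2.14).

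Of the phase II and transport targets, 22 of 25 were tested in mRNA, and 2 were called higher and 1 lower, against 2.3% and 6.56% of all genes, with a median of 0.34. By the adjusted rule 7 were higher and 2 lower, against 5.01% and 12.7%. Ugt1a1, which conjugates bilirubin, rose from 5.39 and 8.67 to 68.5 and 22.7 RPKM (log2 difference 2.37 ± 0.45, limma, adjusted p = 0.00773). Ugt1a6a rose from 0.675 and 1.82 to 15.4 and 5.01 RPKM, but the Ugt1a genes share their last exons, so their reads cannot be told apart. Without HB replicate 1 the mRNA differences of Ugt1a1 and Ugt1a6a were 1.595 and 1.467, and without HB replicate 2 they were 3.145 and 2.92. Slco1a4, an organic anion transporter, fell from 33.3 and 30.0 to 13.8 and 5.34 RPKM (−1.75 ± 0.37, adjusted p = 0.0104). In footprints 1 gene, Sult5a1, was called higher and 2, Gsta2 and Ugt1a5, lower, against 1.58% and 7.86% of all genes, all with an adjusted p of 0.493 (limma) and under 10 RPKM in every library. Gsta2 rested on 1 and 2 reads in HF and 0 in HB, where a count of 0 allows up to 13.6 and 24.7 RPKM, so no difference was detectable. Sult5a1 rested on 0 to 4 reads in each library, and Ugt1a5 on 10 and 28 reads in HF and 2 and 0 in HB. In the ratio, Sult5a1 was called higher and Ugt1a5, Ugt1a1 and Ugt1a6a lower, against 1.49% and 4.6% of all genes, with log2 differences of 3.81, −4.52, −2.41 and −2.20 (limma, adjusted p = 0.328 to 0.364). Those of Ugt1a1 and Ugt1a6a were −1.275 and −1.245 without HB replicate 1 and were not called.

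Summed levels of several other marker lists did not overlap between the groups, and their part in the member values was not tested. Summed mRNA of the 14 pericentral hepatocyte genes, the zone where CAR and PXR targets are strongest, was 4716 to 5128 RPKM in HF and 7266 to 7298 in HB. In footprints the same sum was 4824 to 6470 RPKM in HF and 4705 to 4788 in HB. None of the 13 pericentral genes tested in mRNA was called, and their median was 0.26. Periportal sums overlapped, at 6658 to 8773 RPKM of mRNA in HF and 8143 to 9789 in HB, and at 4633 to 5622 and 4167 to 5081 RPKM of footprints. In footprints 2 of the 14 genes (G6pc and Etnppl) were called lower, against 7.86% of all genes (limma, adjusted p = 0.493 and 0.496). Both calls were lost with a common median. Leaving out 1 library spanned −1.40 to −0.91 for G6pc and −1.95 to −0.79 for Etnppl. Summed mRNA of 12 macrophage markers was 192 to 242 RPKM in HF and 318 to 325 in HB, with a median log2 difference of 0.66 against −0.19 over all genes. Of the 12, 1 was called higher, against 2.3% of all genes. It was Lyz2, at 5.19 and 11.5 RPKM in HF against 38.3 and 35.6 in HB. Their footprint sums overlapped, at 243 to 337 in HF and 146 to 346 in HB. Of the 12 footprint differences 10 were negative, with a median of −0.56 against −0.43 over all genes, and 1 was called lower, against 7.86%. In the ratio 11 of 12 were negative, with a median of −1.32 against −0.35. Lyz2 and Cd68 were called lower in the ratio, against 4.6% of all genes. The ratio of Lyz2 (log2 difference −2.48) was at −1.05 without HB replicate 2 and lost its call there, without either HF library and in several other fits. That of Cd68 rests on 0 footprint reads in HB. Cd68 footprints, called lower, stood at 12.7 and 6.99 RPKM in HF and 0 in HB, where a count of 0 allows up to 14.4 RPKM in replicate 1 and more in replicate 2, so no difference was detectable.

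Endothelial markers summed to 162 to 163 RPKM of mRNA in HF and 111 to 142 in HB. Of the 11, 1 (Stab1) was called lower, against 6.56% of all genes, but 5 of the 11 differences were positive and 6 negative. Their median of −0.20 was near that of all genes. In footprints they summed to 200.2 to 211 RPKM in HF and 101 to 168 in HB, with 3 of 11 called lower, against 7.86% of all genes, each with an adjusted p of 0.493 (limma). The calls of Pecam1 and Stab2 were lost without either HF library and with a common median. Egfl7 was the other, but it rested on 1 and 0 reads in HB, where a count of 0 allows up to 15.5 RPKM, above both HF values, so no difference was detectable. Stellate cell markers summed to 54.6 to 64.8 RPKM of mRNA in HF and 74.7 to 104 in HB, but 6 of the 10 tested were negative and none was called. Their footprint sums went the other way, at 165 to 196 RPKM in HF and 105 to 121 in HB. All 11 tested footprint differences were negative and none was called, with a median of −1.04 against −0.43 over all genes. Cholangiocyte markers summed to 60.3 to 70.5 and 50.2 to 58.9 RPKM of mRNA. Lymphocyte markers summed to at most 10.7 RPKM of mRNA in any library, and of the 10 intestinal markers Cdx1, Cdx2 and Lct were listed at 0 in all mRNA libraries. The intestinal list, which contains Cyp3a13, summed to 282 to 313 RPKM in HF and 365 to 473 in HB. Of its 3 tested genes 1 was called higher in mRNA, against 2.3% of all genes. It was Fabp2, a fatty acid binding protein, at 78.7 and 82.0 against 220 and 174 RPKM (log2 difference 1.27 ± 0.26, limma, adjusted p = 0.00957).

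The sex-biased lists were examined because Cyp2b9 and Cyp2b13 belong to the female-biased one. Leaving out Cyp2b13, 7 of its 17 genes were tested in mRNA, with a median log2 difference of −0.69, and none was called. The sum over the whole list was 166 to 195 RPKM in HF and 97.3 to 133 in HB, and it contains Cyp2b9 and Cyp2b13. Of the 16 male-biased genes, 2 were called higher and 2 lower in mRNA, against 2.3% and 6.56% of all genes, with a median of 0.98. By the adjusted rule 5 were higher and 2 lower, against 5.01% and 12.7%. In the ratio 11 of the 16 were negative, with a median of −0.91, and Bcl6 was called higher and Cyp4a12a lower. In footprints 10 of the 16 were positive, with a median of 0.22 against −0.43 over all genes. Mup1 and Hsd3b5 were called higher and none lower, against 1.58% and 7.86% of all genes, each with an adjusted p of 0.493 (limma). Hsd3b5 rested on 1 and 0 reads in HF and 4 and 1 in HB, where 3 reads are 7.26 and 13.2 RPKM. Both calls were lost with a common sum. Leaving out 1 library spanned 1.155 to 2.127 for Mup1 and 1.54 to 2.92 for Hsd3b5. Cyp4a12b, a fatty acid hydroxylase, rose from 7.34 and 10.5 to 42.7 and 37.4 RPKM (log2 difference 2.07 ± 0.26, limma, adjusted p = 0.00523), and Cyp4a12a rose from 36.8 and 24.6 to 70.5 and 82.9 RPKM. Bcl6, a repressor of female-biased genes in male liver, fell from 12.9 and 24.9 to 4.52 and 6.15 RPKM, and Selenbp2 from 89.4 and 100.3 to 26.2 and 43.5 RPKM.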

How the data were processed

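Mouse liver RNA-seq and Ribo-seq reads were aligned by the authors with FANSe2 (mm10). For each of the 8 libraries they deposited 1 RPKM value per symbol. They called differential genes with edgeR, a method for counts, which was not used here because the deposited values are RPKM. Whole reads, library totals and gene lengths were recovered from the steps that 1 read makes in the RPKM, and all 72 member values came out as whole reads. How reads that match several genes were assigned is not given in the sources used here.

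The 4 libraries of an assay were compared with limma 3.58.1 (R 4.3.3; lmFit and eBayes with a variance trend) on log2(RPKM + 1), HB against HF, two-sided, with Benjamini-Hochberg adjustment over all genes with a mean of at least 1 RPKM. Log2 differences of the main fits are on the log2(value + 1) scale, which understates those of low genes. Folds given as times or as a share of a mean are ratios of means without the added 1. TE was RPF divided by mRNA, using libraries of equal number. The labels do not say that equal numbers share an animal, so whether the ratios of the groups overlap depends on that pairing. Deviations of mRNA and footprints of equal number correlated at −0.0024 in HF and −0.077 in HB. Call thresholds were those of the study. Intervals (95%, exact Poisson) and the limit of 3 reads cover counting error only. Alternatives were another pseudocount, filter or scaling, no trend, voom on recovered reads, a replicate block and leaving out each library. Members and lists were chosen with earlier results of these data known. Named genes are the 9 members, the 3 genes nearest to Cyp2b13 and, of the other lists, up to 4 called genes of smallest p per direction, assay and list whose groups do not overlap. Sequences and annotation came from GENCODE M21 (GRCm38) and RefSeq (GRCm38.p6). The fitting steps were tested on simulated data.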

Additional observations from a re-analysis of the deposited data

How the results depend on the processing

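Of 338 values of the 9 genes under the alternatives, 288 kept their direction and their side of the threshold and 21 changed direction. By the study's rule no tested member was called in mRNA, against 2 (Nr1i2 and Nr1i3) with a common sum and 1 to 2 without 1 library. Numbers of the replicates did not pair the libraries (correlation of deviations −0.104 in mRNA and −0.0138 in RPF). The replicate block called 3 members in mRNA and none in RPF or TE, and crossing its numbers, an alternative chosen after seeing the data, also called 3. In RPF none was called, against 4 with a common sum, 2 with voom and 0 to 2 without 1 library. In TE none was called by the study's rule or by adjusted p, against 0 to 1 without 1 library under each. By adjusted p 2 members fell in mRNA, against 0 without a filter, 0 with a common median and 1 to 3 without 1 library. The 4 pathway lists held 9 called genes in mRNA, against 2 without a filter, 21 with the replicate block, 18 with it crossed and 9 to 17 without 1 library. They held 9 in RPF, against 4 with a mean of at least 5 RPKM, 4 with a common median, 22 with a common sum, 5 with the replicate block and 1 to 11 without 1 library. They held 5 in TE, against 3 with a mean of at least 5 RPKM, 13 with a common sum and 3 to 11 without 1 library.

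Cyp2b13 differed by −2.28 in mRNA on the log2 scale, against −3.13 with a pseudocount of 0.1 RPKM, −2.01 with a common median and −3.26 with voom. In RPF 0.79 became −0.0071 with a common sum, and in TE 3.07 became 3.97 with a pseudocount of 0.1 RPKM and 2.30 with a common sum. Its TE fold was 18.8, and that of the summed Cyp2b genes, mostly Cyp2b9, was 2.56. With a common median, Cyp3a13 mRNA was at 0.052, Nr1i3 RPF at 0.19 and Cyp2b9 RPF at 0.30. Cyp2b10 RPF was at −0.91 with a pseudocount of 0.1 RPKM and at −0.38 with a common sum, where Nr1i2 TE was at −0.16. Leaving out 1 library spanned −0.41 to 0.86 for Cyp3a11, −0.66 to 0.22 for Cyp3a13 and −0.77 to 0.17 for Cyp3a25 in mRNA. It spanned −0.49 to 0.22 for Nr1i3, −0.19 to 0.13 for Cyp2b9 and −1.71 to 2.29 for Cyp2b10 in RPF. In TE it spanned −0.50 to 0.076 for Por, −0.40 to 3.42 for Cyp2b10, −2.15 to 0.094 for Cyp3a11, −1.92 to 0.27 for Cyp3a13 and −1.28 to 0.083 for Cyp3a25. By the study's rule, leaving out HB replicate 2 called Nr1i2 and Nr1i3 in mRNA, Cyp3a11 and Cyp3a13 in RPF and Cyp3a11 in TE, leaving out HB replicate 1 called Cyp2b9 in mRNA and Cyp2b10 in RPF and TE, and leaving out HF replicate 1 or 2 called Nr1i3 or Cyp2b10 in mRNA. The causes were not tested. Windows of 50 and 100 bases left shared shares of 50.9% and 22.8% for Nr1i3, 12.7% and 1.02% for Cyp2b9, 12.5% and 0 for Cyp2b10, 33.1% and 11.5% for Cyp2b13, 23.0% and 0.495% for Cyp3a11, 0 and 0 for Cyp3a13, and 30.3% and 5.46% for Cyp3a25. A minimum mean of 5 RPKM gave no value for Cyp2b13 in mRNA and TE or for Cyp2b10 in RPF and TE. Footprint values rest on 0 to 22 reads in the HB libraries for Nr1i2, Nr1i3, the Cyp2b genes, Cyp3a13 and Cyp3a25, which limits what these libraries can show.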
